A study of Mus musculus with 8 samples.

Results

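The Ifi200 (HIN-200) family is a group of interferon-inducible mouse genes that lie side by side on chromosome 1. The 9 members described here are *Ifi203*, *Ifi204*, *Ifi205*, *Ifi207*, *Ifi209*, *Ifi211*, *Ifi213*, *Mndal* and *Aim2*. They were chosen by gene name from the 23998 genes and loci found in either of the 2 deposited RNA-seq tables. Earlier results of these data were known when the choice was made. Under their own names 8 members were found, and *Ifi211* was found as Mnda, the name the files give to ENSMUSG00000026536. MC38, a murine colon adenocarcinoma line, was used as control (wild type) cells and as cells in which DENR was knocked out (DENR KO), and each was either left untreated or given IFNγ at 20 ng/ml during 4 h, with 2 samples in each of the 4 groups. DENR is a factor that lets ribosomes start again after a short upstream reading frame. The study used lentiviral Cas9 and sgRNAs to make stable MC38 cells without DENR. Whether the 2 DENR KO samples carry 1 sgRNA or 2 is not given in the sources used here. The study calls the sequenced IFNγ-treated samples independent, without saying for this experiment whether they were separate cultures. It makes no such statement for the sequenced untreated samples. The p-values therefore measure only the spread between these samples, which may be technical.

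Proteins of this family carry a HIN domain, which binds double-stranded DNA, and most also carry a pyrin domain, through which they bind partner proteins. Some members act in the nucleus on transcription and growth, and others act as sensors of DNA in the cytosol: AIM2 assembles an inflammasome with the adaptor ASC and caspase-1, and IFI204 has been placed upstream of STING. The genes are classical interferon targets. IFNγ binds its receptor and activates JAK1 and JAK2, and its target promoters carry GAS elements or interferon-stimulated response elements (ISREs), the latter bound by IRF1.

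In the deposited tables a value is a normalised read count, the number of reads on a gene divided by 1 size factor per sample. Reads on genes ranged from 17369020 to 18403790 per sample, so counting error weighs most on members with counts near 10. *Denr* itself was at 1438 and 1401 in control cells and 946 and 957 in DENR KO cells with IFNγ, and at 1448 and 1297 against 943 and 916 untreated. Its transcript therefore remained at about 67.1% of control with IFNγ (limma, adjusted p = 8.17e-06), and the groups did not overlap. Of 8 epithelial markers only 4 were listed with IFNγ, with a summed count between 12.7 and 24.6, whereas 6 mesenchymal markers summed to between 78107 and 81304, so the epithelial character of the label was not seen in the transcripts. The family is strongly expressed in macrophages, and the 9 macrophage markers were therefore summed too: with IFNγ 5 were listed and reached 399 and 455 in control and 464 and 478 in DENR KO cells, nearly all of it *Cd14* and *Cd68*. *Csf1r* and *Itgam* had at most 3.94 counts in any IFNγ-treated sample, and *Ptprc* was not listed there. The 8 lymphocyte markers summed to between 3.02 and 8.84 over all 8 samples. In bulk RNA, fewer cells that express a gene and less of its RNA per cell cannot be told apart.

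The members span GRCm38 chr1:173350879-174031810, a stretch of 681 kb, with 7 genes on the minus strand and *Aim2* and *Ifi209* on the plus strand. *Aim2* (ENSMUSG00000037860, chr1:173350879-173466040) stands at one end and *Ifi205* (ENSMUSG00000054203, chr1:174011998-174031810) at the other. Between them lie *Ifi213* (ENSMUSG00000073491, chr1:173566283-173599274), *Ifi209* (ENSMUSG00000043263, chr1:173630917-173647928), *Ifi207* (ENSMUSG00000073490, chr1:173723427-173741747) and *Ifi204* (ENSMUSG00000073489, chr1:173747293-173766943). Then follow *Mndal* (ENSMUSG00000090272, chr1:173849126-173942491), *Ifi211* (chr1:173896345-173913046) and *Ifi203* (ENSMUSG00000039997, chr1:173920407-173942672). The gene model of *Mndal* runs across *Ifi211* and most of *Ifi203* on the same strand, and it shares 37 exonic bases with *Ifi203*.

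The promoters were read for the ISRE, since members of this family are known IFNγ targets. RefSeq windows on GRCm38.p6, from 250 bases before to 50 after a start, were given for 8 of the 9 members in 10 windows; *Ifi204* had none in the table used here. The core searched, on both strands, was 2 copies of GAAA set 2 bases apart, and it was found before the start in 6 of the 8 members, beside 3.46% of all 27025 genes with a window, counted in the same way. In the lines below, each 60-base stretch is shown 5′ to 3′ on the strand of its gene, and the capitals mark the core. They are shown because 5 of these 6 genes were higher in IFNγ-treated than in untreated control cells, and because the stretches of *Ifi203* and *Mndal* are the same.
Ifi203 (chr1:173942493-173942552, minus strand): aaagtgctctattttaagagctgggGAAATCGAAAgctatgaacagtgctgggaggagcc
Mndal (chr1:173880189-173880248, minus strand): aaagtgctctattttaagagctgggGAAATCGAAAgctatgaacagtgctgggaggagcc
Ifi207 (chr1:173741816-173741875, minus strand): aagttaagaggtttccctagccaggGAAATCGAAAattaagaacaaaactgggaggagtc
Ifi205 (chr1:174031855-174031914, minus strand): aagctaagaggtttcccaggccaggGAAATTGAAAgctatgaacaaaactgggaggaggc
Ifi211 (chr1:173913049-173913108, minus strand): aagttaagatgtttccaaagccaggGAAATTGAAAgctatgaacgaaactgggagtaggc
Ifi213 (chr1:173599311-173599370, minus strand): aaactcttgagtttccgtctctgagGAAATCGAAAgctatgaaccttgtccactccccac

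Among these stretches *Ifi203* and *Mndal* agreed at 60 of 60 bases, *Ifi205* and *Ifi211* at 54, *Ifi205* and *Ifi207* at 52, and *Ifi213* and *Ifi207* at only 29. The core began 35 bases before the start in *Ifi203*, 36 in *Mndal*, 37 in *Ifi211*, 41 in *Ifi207*, 73 in *Ifi213* and 134 in *Ifi205*. *Mndal* had another copy, on the other strand, before a second start, and *Ifi205* another after its start. The exact run GAAATCGAAA was held by only 16 of all 32851 windows, or 0.0487%, and 7 of those 16 belong to genes of this cluster; this run was singled out after the windows had been read. The GAS motif TTCNNNGAA, found in 8.30% of all windows, was in none of the members' windows. Of the windows of *Ifi203*, the one at the start chr1:173942672 held no core. The starts used for *Aim2* (chr1:173420604) and *Mndal* (chr1:173880187 and chr1:173879958) lie well inside their gene models, and starts elsewhere were not searched. The windows of *Aim2* and *Ifi209* held neither motif, and the 100 bases before their starts are shown for contrast.
Ifi209 (chr1:173630759-173630858, plus strand): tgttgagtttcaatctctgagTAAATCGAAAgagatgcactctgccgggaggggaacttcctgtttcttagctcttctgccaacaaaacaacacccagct
Aim2 (chr1:173420504-173420603, plus strand): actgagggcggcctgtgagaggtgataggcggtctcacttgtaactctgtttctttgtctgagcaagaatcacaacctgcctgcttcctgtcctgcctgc

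In *Ifi209* the capitals mark the run nearest to GAAATCGAAA, which differs from it by the single substitution G1T, counted from 1 at the first base of the run and given as the base of the run followed by that of *Ifi209*. In *Aim2* the nearest run differed at 4 positions, and no capitals are set. A match or its absence describes these letters in this window, and binding was not measured.

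Untreated control cells already held transcripts of most members. Set per kilobase of gene model, the mean levels were 217 for *Ifi211*, 176 for *Mndal*, 164 for *Ifi204* and 26.0 for *Ifi203*, followed by 4.84 for *Ifi205*, 4.14 for *Ifi209*, 2.90 for *Aim2* and 2.08 for *Ifi207*. *Mndal* and *Ifi204* did not differ beyond the spread of their 2 samples, nor did *Ifi205* and *Ifi209* or *Aim2* and *Ifi207*, while the samples of *Ifi209* all lay above those of *Aim2*. *Ifi213* was not listed in the untreated table. In control cells with IFNγ the order per kilobase was *Mndal* (1179), *Ifi211* (891), *Ifi204* (543), *Ifi203* (522), *Ifi205* (31.9), *Ifi207* (11.4), *Ifi209* (4.44), *Aim2* (4.36) and *Ifi213* (0.297), in which the samples of *Ifi204* and *Ifi203* overlapped, as did those of *Ifi209* and *Aim2*. Thus 4 genes, *Ifi203*, *Mndal*, *Ifi204* and *Ifi211*, carried between 96.8% and 98.4% of the family's normalised counts in every sample.

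**Figure D1:**
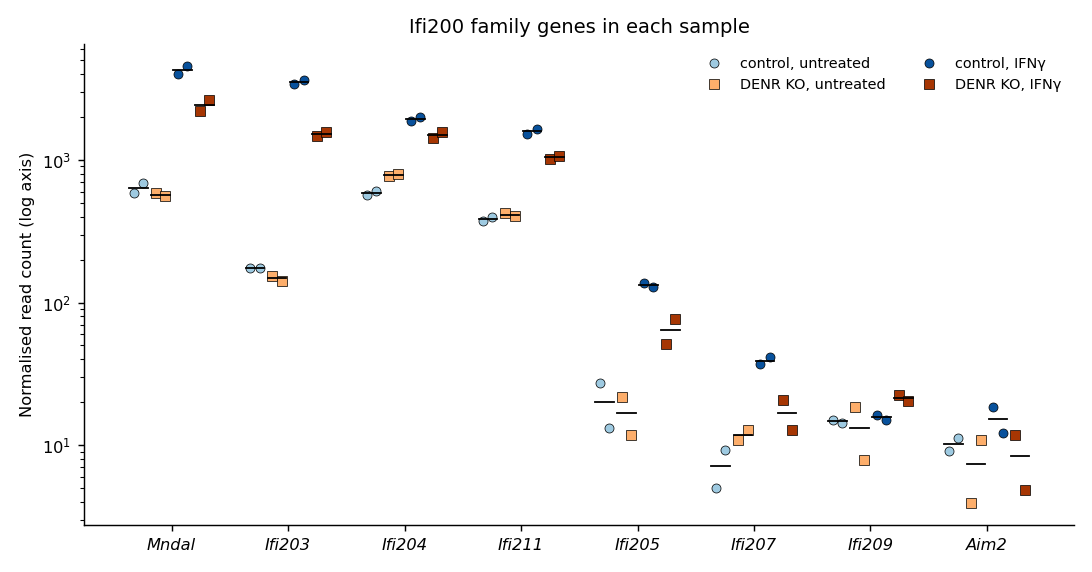
Normalised read count (log axis) of the 8 members listed in both tables, in each of the 8 samples; circles are control and squares DENR KO cells, light colours untreated and dark colours IFNγ-treated, and the short line is the mean of the 2 samples. *Mndal*, *Ifi203*, *Ifi204* and *Ifi211* lie at or above 1015 in all IFNγ-treated samples, while *Ifi207*, *Ifi209* and *Aim2* lie below 50.

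The first question was how far the family differed between IFNγ-treated and untreated cells. The tables were normalized separately, so these ratios describe levels and carry no test. *Ifi203*, a nuclear HIN protein, was at 174 and 175 in untreated control cells and at 3385 and 3621 after IFNγ, a ratio of 20.1. *Mndal*, a growth-restraining member, went from 587 and 693 to 3984 and 4572, a ratio of 6.69. In both genes every IFNγ-treated control sample stood far above every untreated one.

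*Ifi205* was at 27.2 and 13.3 in untreated and 137 and 129 in IFNγ-treated control cells, a ratio of 6.58, and *Ifi207* at 5.03 and 9.18 against 36.9 and 41.3, a ratio of 5.50. *Ifi211* was at 374 and 401 against 1520 and 1660, and *Ifi204* at 566 and 601 against 1870 and 2001, ratios of 4.10 and 3.32. The lowest IFNγ-treated control sample was 4.74 times the highest untreated one in *Ifi205*, 4.02 times in *Ifi207*, 3.79 times in *Ifi211* and 3.11 times in *Ifi204*.

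*Aim2*, the inflammasome sensor, was at 9.05 and 11.2 untreated and 18.4 and 12.1 with IFNγ, and *Ifi209* at 15.1 and 14.3 against 16.4 and 15.1, ratios of 1.51 and 1.07. At these counts neither ratio can be read as a difference. *Ifi213* had 2.05 and 2.01 counts in IFNγ-treated control cells and 0 in both DENR KO samples, all under the 3 counts per sample that a count of 0 allows, and no fold is given. In control cells, 6 of the 8 members found in both tables were more than 2-fold higher with IFNγ, beside 3.29% of the 14268 genes whose mean reached 10 in 1 table or both.

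In DENR KO cells the ratio was 10.3 for *Ifi203*, 4.25 for *Mndal*, 3.82 for *Ifi205*, 2.51 for *Ifi211* and 1.90 for *Ifi204*, each smaller than in control cells. The median log2 ratio over the 8 members was 2.17 in control and 1.13 in DENR KO cells. Over all 14268 genes it was −0.084 and −0.080. *Ifi207* was at 10.8 and 12.8 in untreated and 20.7 and 12.7 in IFNγ-treated DENR KO cells, so the groups overlapped, and its ratio was 1.42. *Aim2* had a ratio of 1.13 and *Ifi209* one of 1.63, and at their counts neither can be read as a change from control cells. Thus 4 of 8 members were more than 2-fold higher in DENR KO cells, beside 2.55% of all 14268 genes. On a common scale, with size factors set over the 8 samples together, the ratio of *Ifi203* was 21.2 in control and 10.9 in DENR KO cells, and that of *Mndal* 7.06 and 4.47. Summed over the members, the counts were 1758 and 1918 in untreated and 10969.8 and 12053 in IFNγ-treated control cells, against 1999 and 1941 and then 6246 and 6969 in DENR KO cells. The sum was thus 6.26 times as high with IFNγ in control cells and 3.35 times in DENR KO cells.

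**Figure D2:**
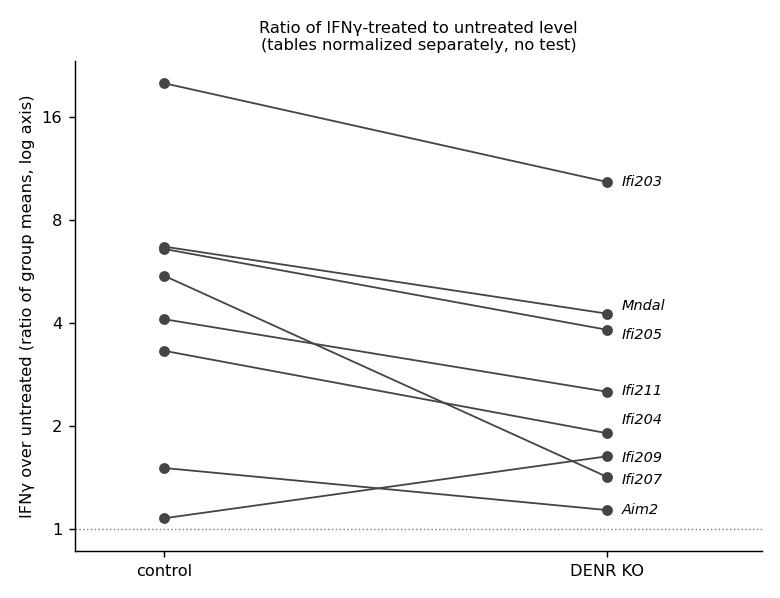
Ratio of the mean normalised count with IFNγ to that in untreated cells (log axis), for control cells on the left and DENR KO cells on the right, 1 line per member and the mean of 2 samples for each group. The line of *Ifi203* falls from 20.1 to 10.3, and that of *Ifi209*, a gene with low counts, rises from 1.07 to 1.63. The ratios were not tested.

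The second question was what DENR KO changed within the IFNγ-treated cells. The rule for a change asked for a log2 difference of more than 0.5 in size together with an adjusted p-value under 0.05. *Ifi203*, *Mndal*, *Ifi205* and *Ifi211* fell in DENR KO cells, 4 of the 9 members, and no member rose. Among all 13928 genes tested, 1.03% were lower by the same rule. The median log2 fold change of the 8 members tested was −0.85, beside −0.00036 for all genes. It lies between the values of *Mndal* (−0.82) and *Aim2* (−0.88), so it rests partly on a scarce gene. *Ifi207* and *Aim2* reached the mean of 10 needed for the test only in this table. *Aim2* did so through its control samples, with a mean of 15.3 against 8.35 in DENR KO cells.

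*Ifi203* was at 3385 and 3621 in control and at 1479 and 1573 in DENR KO cells with IFNγ. The groups lay far apart, with the DENR KO samples the lower. Its log2 fold change was −1.20 ± 0.0645 (SE, n = 2 per group; limma, adjusted p = 1.13e-11), which is 43.6% of control. *Mndal* was at 3984 and 4572 in control and at 2215 and 2651 in DENR KO cells, groups that did not overlap. It fell by 0.82 ± 0.0924 on the log2 scale (SE; limma, adjusted p = 0.000605), to 56.8% of control.

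*Ifi211*, a pyrin and HIN protein named Mnda in the files, was at 1520 and 1660 in control and at 1015 and 1068 in DENR KO cells. Its groups were also separate, with a log2 fold change of −0.61 ± 0.0728 (SE; limma, adjusted p = 4.99e-06). *Ifi205* was at 137 and 129 in control and at 51.2 and 76.2 in DENR KO cells, again without overlap, although its 2 DENR KO samples differed from each other more than its control samples did. Its log2 fold change was −1.08 ± 0.207 (SE; limma, adjusted p = 0.00203). The call for *Ifi205* was lost when all 8 samples shared 1 estimate of the spread (adjusted p = 0.105).

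*Ifi204*, the member placed upstream of STING, was at 1870 and 2001 in control and at 1431 and 1562 in DENR KO cells. The groups did not overlap, but the difference was smaller than in the genes above: its log2 fold change of −0.37 ± 0.0693 passed the test (SE; limma, adjusted p = 0.00153) and lay within 0.5. By adjusted p-value alone, 5 members were lower, beside 2.25% of all genes.

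The scarce members gave no call. *Ifi207* was at 36.9 and 41.3 in control and at 20.7 and 12.7 in DENR KO cells, without overlap, with a log2 fold change of −1.22 ± 0.35 (SE; limma, adjusted p = 0.0517). In limma it passed with a pseudocount of 5 (adjusted p = 0.0457), after centring on the median gene (0.0498) and with a replicate block (0.0184). It did not pass with all 8 samples in 1 fit (limma, adjusted p = 0.162) or in edgeR (0.0564). Leaving out 1 sample gave log2 fold changes from −1.55 to −0.89. *Aim2* was at 18.4 and 12.1 in control and 11.8 and 4.88 in DENR KO cells, with a log2 fold change of −0.88 and a 95% interval from −1.96 to 0.21 (limma, adjusted p = 0.514). *Ifi209* was at 16.4 and 15.1 against 22.6 and 20.5, with a log2 fold change of 0.43 and an interval from −0.37 to 1.23 (limma, adjusted p = 0.725). A change of the size seen in *Ifi203* lies inside the interval of *Aim2* and outside that of *Ifi209*.

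When limma was run without the trend and the robust step, no gene of this table passed (767 genes lower and 818 higher at an unadjusted p under 0.05), and *Ifi203* had an adjusted p-value of 0.167. With edgeR and with DESeq2, run on the recovered reads, 4 members were called.

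**Figure D3:**
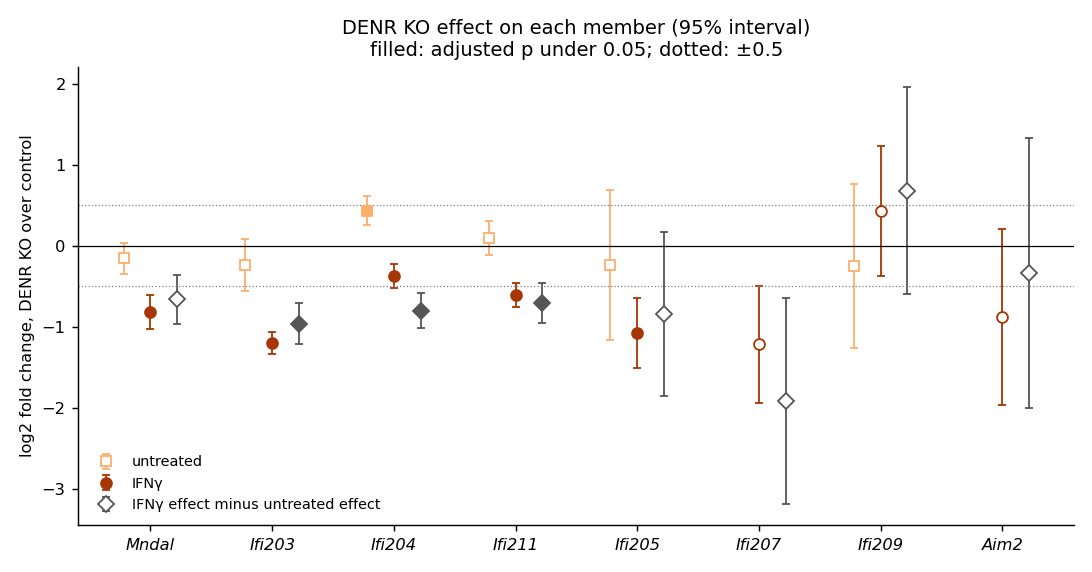
Log2 fold change in DENR KO cells relative to control for each member, untreated (squares), with IFNγ (circles) and the difference between them (diamonds), with 95% intervals from limma on 2 samples per group; filled symbols have an adjusted p-value under 0.05. The circles of *Mndal*, *Ifi203*, *Ifi211* and *Ifi205* lie below −0.5 and are filled, and the squares of *Ifi204* alone are filled, at 0.43.

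The third question was whether the family differed between DENR KO and control cells before IFNγ. None of the 9 members was changed by the full rule in limma, edgeR or DESeq2, beside 0.214% of the 13998 genes tested in limma. In limma 1 member, *Ifi204*, had an unadjusted p under 0.05, beside 524 lower and 771 higher genes among all tested. *Ifi207* and *Aim2* had means under 10 and *Ifi213* was not listed, so 6 members were tested.

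*Ifi204* was at 566 and 601 in untreated control and at 777 and 797 in untreated DENR KO cells. Both DENR KO samples thus stood above both control samples, the opposite order to that with IFNγ. Its log2 fold change was 0.43 ± 0.0874 (SE; limma, adjusted p = 0.0118), within 0.5 but past the test, beside 0.429% of all genes that were higher by adjusted p-value alone. It missed the threshold in DESeq2 (adjusted p = 0.0782) and in limma when any 1 of the 4 untreated samples was left out (0.0714 to 0.152).

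*Ifi203* was at 174 and 175 in control and at 154 and 141 in DENR KO cells, groups that did not overlap, with a log2 fold change of −0.24 that did not pass the test (limma, adjusted p = 0.665). *Mndal* was at 587 and 693 against 587 and 557, and *Ifi211* at 374 and 401 against 427 and 402. The samples of *Mndal* overlapped, and those of *Ifi211* were apart by less than 1 count. The 95% intervals of their log2 fold changes ran from −0.35 to 0.04 for *Mndal* and from −0.12 to 0.31 for *Ifi211*. *Ifi205* and *Ifi209* had log2 fold changes of −0.24 and −0.25 with intervals from −1.16 to 0.69 and from −1.27 to 0.77, and in both genes 1 sample of a pair had about double the count of the other, as in *Ifi205* with 21.6 and 11.8 in DENR KO cells. Leaving out 1 sample turned the sign in these 2 genes.

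The fourth question was whether the DENR KO effect itself differed with IFNγ, which is free of the separate scales of the tables. The test was an interaction term in a fit to the 8 samples, at an adjusted p-value under 0.05. *Ifi203*, *Ifi204* and *Ifi211* passed, the effect of DENR KO being lower with IFNγ in each, beside 0.421% of the 14268 genes tested. The difference was −0.96 ± 0.122 for *Ifi203* (SE; limma, adjusted p = 9.01e-05), −0.80 ± 0.105 for *Ifi204* (adjusted p = 0.000129) and −0.70 ± 0.118 for *Ifi211* (adjusted p = 0.00267).

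In *Ifi204* the difference joins an effect of 0.43 untreated to one of −0.37 with IFNγ, whereas in *Ifi203* it lies mainly in the IFNγ-treated samples. *Mndal* had a difference of −0.66 ± 0.140 that missed the threshold (limma, adjusted p = 0.0721). It passed in limma without the filter on low counts (adjusted p = 0.0206) and with a replicate block (0.000148), and in DESeq2 (0.00331). It did not pass in edgeR (adjusted p = 0.161) or in limma after centring on the median gene (0.0957). Leaving out 1 sample gave differences from −0.79 to −0.53. *Ifi205* had −0.84 with an interval from −1.85 to 0.17, *Ifi207* −1.92 with an adjusted p-value of 0.361, *Aim2* −0.34 and *Ifi209* 0.68, none of which passed. Without the trend and robust step no gene passed the interaction either (474 lower and 399 higher at an unadjusted p under 0.05).

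Copies within the cluster limit what a count can be assigned to. Of the 150-base runs in the transcripts of *Ifi211*, 46.4% also occur in another gene, mostly *Ifi205* (32.3%). The share was 12.7% in *Ifi205*, 9.28% in *Ifi209*, 6.77% in *Ifi204*, 1.61% in *Mndal* and 0.827% in *Ifi203*, and no run of *Aim2* or *Ifi207* was shared. How reads that fit several places were counted is not given in the sources used here. The values of *Ifi211* and *Ifi205* are uncertain for this reason, while those of *Ifi203* and *Mndal* rest almost entirely on sequence of their own.

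The rest of the cluster adds 5 loci. *Ifi203-ps*, a pseudogene of *Ifi203*, was at 32.2 and 29.6 in untreated control and 50.03 and 39.3 in untreated DENR KO cells, and at 274 and 276 in control against 159 and 162 in DENR KO cells with IFNγ. It was above control untreated and below it with IFNγ, without overlap in either table. Before IFNγ, *Ifi203-ps* had a log2 fold change of 0.51, with an interval from −0.099 to 1.12. This did not pass the test (limma, adjusted p = 0.621), so a higher untreated level of *Ifi203-ps* in DENR KO cells was not shown. With IFNγ it fell by 0.77 ± 0.131 on the log2 scale (SE; limma, adjusted p = 0.000544), and its difference of −1.28 passed the interaction (adjusted p = 0.026), which it did not in DESeq2 (0.0863), nor when any 1 of the 4 IFNγ-treated samples or untreated DENR KO replicate 1 was left out (adjusted p from 0.129 to 0.192). *Ifi206*, *Ifi208* (Pydc3 in the files), *Ifi202b* and *Gm18445* had at most 6.04 counts in any sample where they were listed.

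**Figure D4:**
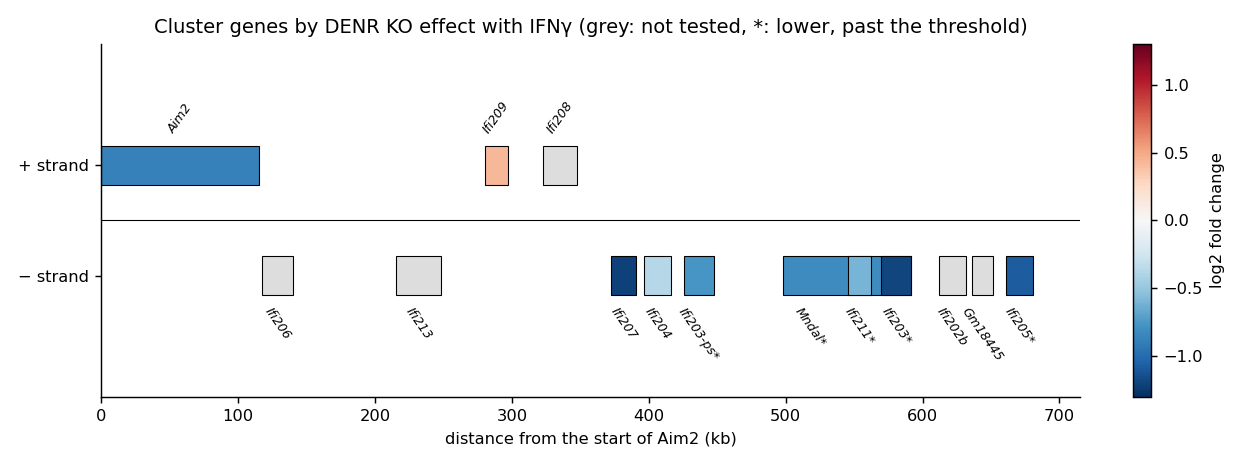
Gene models of the 14 cluster genes, by strand, against the distance from the start of *Aim2* in kb; colour is the log2 fold change in DENR KO cells with IFNγ, grey genes were not tested, and an asterisk marks genes that fell past the threshold. The 5 marked genes lie from 426 kb onwards, and *Aim2* and *Ifi209*, at 0 and 280 kb, are not marked. Also unmarked are *Ifi207* at 372.5 kb (−1.22, limma adjusted p = 0.0517) and *Ifi204* at 396.4 kb (−0.37, adjusted p = 0.00153, within 0.5). *Aim2*, *Ifi209* and *Ifi207* are scarce.

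Genes beside the cluster were read for comparison. Within 1 Mb on either side 18 further genes were listed and 7 could be tested with IFNγ. Of these 3 fell, beside 1.03% of all 13928 genes tested: *Slamf8*, a myeloid receptor gene (449 and 487 in control against 258 and 237 in DENR KO cells), *Cfap45* (232 and 236 against 146 and 151) and *4933439K11Rik* (108 and 84.6 against 45.3 and 53.7). The last 2 genes overlap each other on opposite strands, so that without strand their reads cannot be told apart. *4933439K11Rik* lost its call without control replicate 1 (limma, adjusted p = 0.13) or DENR KO replicate 1 (0.0782), with all 8 samples in 1 fit (0.101) and in DESeq2 (0.126), and *Cfap45* in DESeq2 (0.0522). Untreated, *Cfap45* was at 73.4 and 78.6 in control and 44.1 and 53.1 in DENR KO cells, and its log2 fold change, −0.64, did not pass (limma, adjusted p = 0.348), and its difference between treatments was −0.01. The other 4 tested, *Tagln2*, *Gm37145*, *Pigm* and *Dusp23*, did not pass, and the median log2 fold change of the 7 was −0.07, the value of *Tagln2*. In control cells the IFNγ ratio was 22.0 for *Slamf8*, 3.94 for *4933439K11Rik* and 3.07 for *Cfap45*. It was 1.13 for *Tagln2*, 1.10 for *Dusp23*, 1.01 for *Pigm* and 0.77 for *Gm37145*.

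The partners of the family in cytosolic DNA sensing were described from a list of 30 genes, of which 28 were listed and 27 tested. With IFNγ, 2 fell, beside 1.03% of all 13928 genes tested, and none rose. *Samhd1*, which degrades nucleotides and limits cytosolic DNA, was at 18416 and 18715 in control and at 11623 and 11690 in DENR KO cells (log2 fold change −0.67, limma adjusted p = 1.48e-09). *Zbp1*, a sensor of Z-form nucleic acid, was at 1014 and 1068 against 651 and 646 (−0.68, adjusted p = 3.52e-06), and lost its call with all 8 samples in 1 fit (0.0552).

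*Sting1*, the adaptor downstream of cGAS, was at 1424 and 1554 against 1094 and 1053, a log2 fold change of −0.47 that passed the test (limma, adjusted p = 0.000184) within 0.5. *Samhd1* and *Sting1* also passed the interaction (−0.51, adjusted p = 0.00038, and −0.59, adjusted p = 0.00686), *Sting1* not without IFNγ-treated control replicate 2 (0.0695), IFNγ-treated DENR KO replicate 2 (0.053) or untreated DENR KO replicate 1 (0.0936). Untreated, none of the 26 tested was changed. Over all genes, 0.421% were lower in the interaction and 0.214% were changed untreated. The list's median log2 fold change with IFNγ was −0.08, against −0.85 for the Ifi200 members.

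The route from the IFNγ receptor was described from 20 genes, all tested with IFNγ. Of these 8 fell, beside 1.03% of all 13928 genes tested, and none rose. They were *Batf2*, *Irf8*, *Ciita*, *Socs1*, *Socs3*, *Stat3*, *Stat2* and *Irf1*, with log2 fold changes between −0.89 and −0.52 and a list median of −0.31. Leaving out 1 sample took *Stat2* to −0.48 (control replicate 2 left out) or −0.49 (DENR KO replicate 1) and *Stat3* to −0.49 (control replicate 1), within 0.5, and *Ciita* lost its call with all 8 samples in 1 fit (limma, adjusted p = 0.353). *Irf1*, whose product binds ISREs, was at 17208 and 16991 in control and 11899.6 and 12009 in DENR KO cells (−0.52, limma adjusted p = 1.01e-07). *Jak2*, the receptor-bound kinase, was at 2068 and 2163 against 1706 and 1738, groups that did not overlap. Its log2 fold change of −0.30 passed the test within 0.5 (limma, adjusted p = 0.00644). Untreated, none of the 18 tested was changed, beside 0.214% of all genes. In the interaction 6 of the 20 passed, all of them lower with IFNγ, beside 0.421% of all 14268 genes. The other 12 did not meet the full rule, among them *Ifngr1* (−0.07) and *Jak1* (0.01). The part of the 8 genes that fell in the lower levels of the family was not tested.

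Genes with a pattern like that of the family were sought outside the cluster. For each of 10321 named genes whose mean over the 8 samples reached 100, the log2 ratios to untreated control of the other 3 group means were set against the median of the 6 members tested in both tables, which was −0.15 for untreated DENR KO, 2.35 for IFNγ-treated control and 1.52 for IFNγ-treated DENR KO. The nearest 5 by Euclidean distance over these 3 ratios were *Il18bp* (0.236), a secreted inhibitor of interleukin-18, *Crem* (0.266), *Il13ra1* (0.277), *Casp4* (0.311), the mouse caspase-11 gene, and *Trim12c* (0.338).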

How the data were processed

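RNA from 8 samples of MC38 cells was sequenced, and the authors deposited 2 tables, 1 for IFNγ-treated and 1 for untreated cells. Each deposited table holds a normalized signal per gene and sample (reads over a sample's size factor, which was 0.976 to 1.02) and the length of each gene model. The values came out as whole reads, within 0.001, for 100% of genes in each sample. HISAT2 2.0.5, StringTie 1.3.3b, featureCounts 1.5.0-p3, DESeq2 1.20.0 and mm9 are named in the submitters' processing notes, but 95.4% of the 23583 genes shared with GENCODE M21 had its GRCm38 coordinates, and these are given. Strand and the handling of reads that fit several places are not given in the sources used here. The authors' fold changes, p-values and group means were not used.

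Within each table, limma 3.58.1 (R 4.3.3) with trend and robust moderation was run on log2(value + 1) over all genes with a mean of at least 10, with Benjamini-Hochberg adjustment. Fold changes on this scale understate the change of low genes. The interaction was fitted on all 8 samples over the genes of both tables with a mean of at least 10 in 1 of them. The alternatives were pseudocounts of 0.5 and 5, no filter, a mean of at least 50, median centring, limma without trend and robust moderation, edgeR 4.0.16 and DESeq2 1.42.0 on the recovered reads, 1 fit over 8 samples, an adjusted p-value alone, a replicate block and leaving out each sample. The fits were also run on simulated data with a set spread and changes placed only in genes that were not scarce. That run cannot show how the fits behave for scarce members or with the spread of these samples. Named were all members, cluster and flanking genes with a mean of at least 10, list genes that passed, controls (*Denr*, *Irf1*, *Jak2*; 1 further control is not reported here) and 5 genes of like pattern; *Sting1* and the scarce cluster loci were added after their values were seen. The members and lists were chosen with earlier results of these data known.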

Additional observations from a re-analysis of the deposited data

Results flagged for a closer look

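The DENR KO effect differed between IFNγ-treated and untreated cells, by the interaction test in limma, for 3 members. For *Ifi203* the log2 fold change in DENR KO cells was −0.24 untreated and −1.20 with IFNγ, a difference of −0.96. For *Ifi204* it was 0.43 and −0.37, a difference of −0.80, with a different sign in the 2 tables; its untreated effect missed the threshold in DESeq2 (adjusted p = 0.0782) and in limma when any 1 untreated sample was left out (0.0714 to 0.152). For *Ifi211* it was 0.10 and −0.61, a difference of −0.70. With 2 samples per group no group could be tested for a sample that stands apart.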

How the results depend on the processing

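With IFNγ, between 3 and 5 members were called lower in every alternative but 1, limma without trend and robust moderation, which left 0 members with IFNγ, 0 in the interaction, 0 of the DNA sensing genes and 0 of the IFNγ route genes. *Ifi203*, *Mndal* and *Ifi211* were called in 13 of 14 alternatives and *Ifi205* in 12. By adjusted p-value alone 1 member (*Ifi204*) was called untreated and 13 of the IFNγ route genes with IFNγ, and with all 8 samples in 1 fit 1 DNA sensing gene was called. Leaving out each sample gave 4 to 5 members with IFNγ, 0 untreated, 3 to 4 in the interaction, 2 to 3 DNA sensing genes and 7 to 8 IFNγ route genes. The median log2 ratio of IFNγ-treated to untreated level over the 8 members ranged from 1.98 to 2.24 in control cells and from 1.08 to 1.36 in DENR KO cells when a sample was left out. Signs turned only for scarce members: the untreated log2 fold change ranged from −0.73 to 0.25 for *Ifi205* and from −0.82 to 0.32 for *Ifi209*, and *Aim2* ranged from −0.97 to 0.29 in the interaction and from −0.51 to 0.92 in its DENR KO ratio.

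The samples share replicate numbers 1 and 2, and the replicate block was run as an alternative. Samples with the same number correlated in their deviations at 0.238 between the IFNγ-treated groups, 0.246 between IFNγ-treated and untreated control cells and 0.0029 to 0.0969 in the other 4 pairs of groups, and the numbers were not taken as pairs. With the replicate block 5 members were called with IFNγ, 0 untreated and 4 in the interaction; *Ifi207* passed with IFNγ (adjusted p = 0.0184) and *Mndal* in the interaction (adjusted p = 0.000148). Counting error limits *Aim2*, *Ifi207*, *Ifi209* and *Ifi213*.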
